A study of Arabidopsis thaliana with 12 samples.

Results

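The gene ontology column of the deposited table assigns the term mRNA modification, by that exact name, to 89 of 32399 genes, and these 89 genes are described here across 12 seedling libraries. The term was singled out because it was raised by warmth in these same libraries, so every value of the members that compares 29 °C with 22 °C is given as a description. A member is named called there where it passes the threshold used for all genes, which marks a difference that is large for the spread of its libraries and is not independent evidence of a response. All 89 genes had enough counts to be analysed. The 14 genes that hold only a longer term, mitochondrial or chloroplast mRNA modification, were not members.

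In plant organelles the best known form of mRNA modification is editing, in which chosen cytidines of a chloroplast or mitochondrial transcript are converted to uridines. Pentatricopeptide repeat (PPR) proteins, encoded in the nucleus and imported into the organelle, each recognise the sequence before a few such sites, and many end in the amino acids D, Y and W, the tail of a deaminase-like domain. Many of the edited chloroplast transcripts encode subunits of the NDH complex, which carries electrons around photosystem I.

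The libraries came from Arabidopsis thaliana seedlings, 5 days old. Some were wild type (WT), and others belonged to a line labelled rve5-2, named for an allele of the clock-related gene RVE5 (REVEILLE 5). Plants had grown at 22 °C under long days of 16 h light and 8 h dark. A final 12 h followed, either at the same temperature or at 29 °C, and harvest was 12 h after lights on, with 3 libraries in each of the 4 groups. The labels do not say whether replicates were separate cultures, so p-values measure only the spread between these libraries. RVE5 itself stood at 14.9 ± 0.757 CPM in WT and at 1011 ± 68.1 CPM in the libraries labelled rve5-2 at 22 °C (SD, n = 3 each), far higher and not lower, and a direction implied by the allele name is therefore not assumed. CPM is counts per 1e6 counts after scaling of the libraries.

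The name of the term describes few of its genes. Of the 89, 15 encode PPR proteins and 9 of these are known chloroplast editing factors. In the table's free-text description, 2 members, CRR4 and CRR21, name mRNA modification. None of the 27 listed mitochondrial editing PPR genes was a member. The same was true of the 9 MORF genes, whose products assist editing in both organelles, of 9 other editing cofactors, and of 12 genes of the machinery that writes, reads or removes N6-methyladenosine on nuclear transcripts. What the members share more widely is the chloroplast. The component term chloroplast was held by 62.9% of members and by 9.89% of all genes. The component term mitochondrion was held by 14 members, 15.7%, and by 6.91% of all genes. Stomatal complex morphogenesis was held by 17 members, thylakoid membrane organization by 13, the plastid pathway of isopentenyl diphosphate synthesis by 13, and starch biosynthesis and maltose metabolism by 12 each. The set is accordingly called below by its term, as a mostly chloroplast-related gene set, and its members are grouped by role: 9 PPR editing factors, 6 other PPR proteins, 17 genes of plastid gene expression, 15 of the NDH complex and photosynthetic assembly, 22 of metabolism and other chloroplast functions, and 20 regulators, receptors and others. The edited chloroplast transcripts themselves were not analysed here, and the 17 such loci looked up are not among the rows of the table.

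The coding sequences show how far the editing factors differ among themselves. The last 60 coding bases of each are printed 5′ to 3′ in the sense of the gene, read from the TAIR10.1 reference, with the last 4 codons, the stop included, in capitals.
CRR22, chr1:3791454-3791513, minus strand: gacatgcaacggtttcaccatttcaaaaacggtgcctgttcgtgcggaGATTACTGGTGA
CRR28, chr1:21939868-21939927, minus strand: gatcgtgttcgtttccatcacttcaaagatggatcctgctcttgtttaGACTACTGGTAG
AT3G14330, chr3:4779688-4779747, minus strand: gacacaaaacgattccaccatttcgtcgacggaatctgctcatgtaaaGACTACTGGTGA
RARE1, chr5:4246954-4247013, minus strand: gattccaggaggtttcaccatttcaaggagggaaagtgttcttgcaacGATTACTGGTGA
AT5G66520, chr5:26553682-26553741, plus strand: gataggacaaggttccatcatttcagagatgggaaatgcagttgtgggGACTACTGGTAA
OTP85, chr2:870220-870279, plus strand: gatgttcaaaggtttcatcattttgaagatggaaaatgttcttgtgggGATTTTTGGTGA
CRR4, chr2:18694816-18694875, minus strand: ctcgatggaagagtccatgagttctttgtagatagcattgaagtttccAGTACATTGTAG
CRR21, chr5:22561941-22562000, minus strand: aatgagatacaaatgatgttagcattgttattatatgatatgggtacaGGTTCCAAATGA
AT3G22150, chr3:7815431-7815490, plus strand: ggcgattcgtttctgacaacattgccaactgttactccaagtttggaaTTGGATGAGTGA

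In the first 5 of these the capitals spell codons for D, Y and W before the stop. OTP85 has a phenylalanine codon in the middle position, and CRR4, CRR21 and AT3G22150 end in other codons. A DYW ending was present in 7 of the 89 members and in 59 of 21157 protein-coding genes analysed (0.279%). Among 487 PPR genes outside the set the share was 10.5%. The coding sequence lay in a transcript with a single exon for 7 of the 9 editing factors, for 4.05% of the 74 members that are not PPR genes, and for 16.5% of all protein-coding genes analysed. The median number of exons was 6.5 among the members that are not PPR genes and 4 among all genes. AT3G22150, AT3G14330 and AT5G66520 are known from the literature as the editing factors AEF1, CREF3 and CREF7. The table and RefSeq do not give these names, and the loci are used here.

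Windows of 250 bases upstream of the outermost annotated start were also read for all 89 members and for 21558 genes analysed, on both strands. Site II elements (TGGGCC or TGGGCT), which TCP factors bind and which are common before genes of organelle biogenesis, were in 24 members (27%), in 21.6% of all windows and in 31% of those of PPR genes outside the set. The evening element AAAATATCT, to which REVEILLE proteins bind, was in 2 members (2.25%) and in 2.46% of all windows. The related CCA1 site AAAAATCT was in 4.49% of members against 6.67%. The G-box CACGTG, bound by PIF factors among others, was in 5.62% against 7.21%. The heat shock element GAANNTTC was in 8.99% against 9.25%, and the telo box AAACCCTA in 4.49% against 3.58%. The window of the most abundant editing factor, AT3G22150, is printed with matches to these motifs in capitals. It holds 2 matches to each form of site II, some read on the opposite strand.
AT3G22150, chr3:7812611-7812860, plus strand: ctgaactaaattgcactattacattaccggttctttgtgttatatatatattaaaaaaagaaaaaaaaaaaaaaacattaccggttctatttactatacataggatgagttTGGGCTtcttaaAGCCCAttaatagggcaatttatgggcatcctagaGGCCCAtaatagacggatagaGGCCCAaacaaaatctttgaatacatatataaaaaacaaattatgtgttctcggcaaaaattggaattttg

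Members were on the whole well expressed. Their median level over the 12 libraries was 26.7 FPKM (fragments per kilobase of transcript and 1e6 fragments, the authors' value), against 7.95 FPKM for all genes analysed. The editing factors had the lowest median of the role groups, 4.17 FPKM, and ran from 1.53 FPKM for CRR4, the lowest member, to 18.6 FPKM for AT3G22150, which ranked 59 of 89. The other PPR genes had a median of 9.4 FPKM, plastid gene expression 31.1 FPKM, metabolism 28.4 FPKM, the regulators 23.3 FPKM, and the NDH complex and photosynthetic assembly 55.9 FPKM. The 5 highest means were those of the plastid ribosomal L10-family gene EMB3136 (582.7 FPKM), the NDH subunit genes PnsL1 (215.9 FPKM) and NdhN (159.2 FPKM), the iron-sulfur protein gene NEET (184.1 FPKM) and AT5G55220, a trigger factor type chaperone (157.6 FPKM).

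Libraries held 65.9 to 89.1 M counts (M, 1e6). In WT at 29 °C replicate 1 stood apart from its group: its counts differed from those of the other replicates by a chi-square per gene of 32.1 to 33.3, while other replicate pairs differed by 7.13 to 12.5. Marker lists of root, green tissue and cell division moved with temperature. The summed level of 18 root markers was 175.8 to 246.9 CPM in WT at 22 °C and 63.6 to 129.6 CPM at 29 °C, and it was 218.2 to 313.4 CPM and 81.4 to 124.1 CPM in the libraries labelled rve5-2. Of these 18 markers 9 were called lower at 29 °C in each genotype, and at most 1 was at 0 in any library. Of all genes 7.41% were called lower in WT and 13% in the libraries labelled rve5-2. The lowest of all these sums, 63.6 CPM, was that of replicate 1 in warm WT. The 8 green-tissue markers summed to 39234 to 42306 CPM and 41137 to 54710 CPM in WT at 22 °C and 29 °C, and to 46858 to 51166 CPM and 54857 to 65317 CPM in the libraries labelled rve5-2. Of the green-tissue markers 4 were called higher at 29 °C in WT and 5 in the libraries labelled rve5-2. The shares of all genes called higher, for these and for the cell-division markers, were 8.08% and 13%. Of 12 cell-division markers 4 were called higher in each genotype, with sums of 342.6 to 359.8 CPM in cool and 427.9 to 452.8 CPM in warm WT, and of 314.8 to 352.7 CPM and 360.4 to 422.3 CPM in the libraries labelled rve5-2. The part of the green-tissue and cell-division markers in the values of the members was not tested, and that of the root markers cannot be told apart from temperature. Fewer cells of a type and less RNA per cell cannot be told apart in RNA of seedlings.

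The median member, relative to its own mean over the 12 libraries, stood at 0.949, 0.857 and 0.902 in WT at 22 °C and at 1.24, 0.988 and 0.941 in WT at 29 °C. In the libraries labelled rve5-2 it stood at 0.942, 0.923 and 0.873 at 22 °C and at 1.18, 1.11 and 1.07 at 29 °C. The 3 warm libraries labelled rve5-2 were all above the 3 cool ones. In WT the third warm library lay below the first cool one, and the first warm library was the highest of all 12. The same median over all genes analysed was 0.981 to 0.997 in every library.

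**Figure D1:**
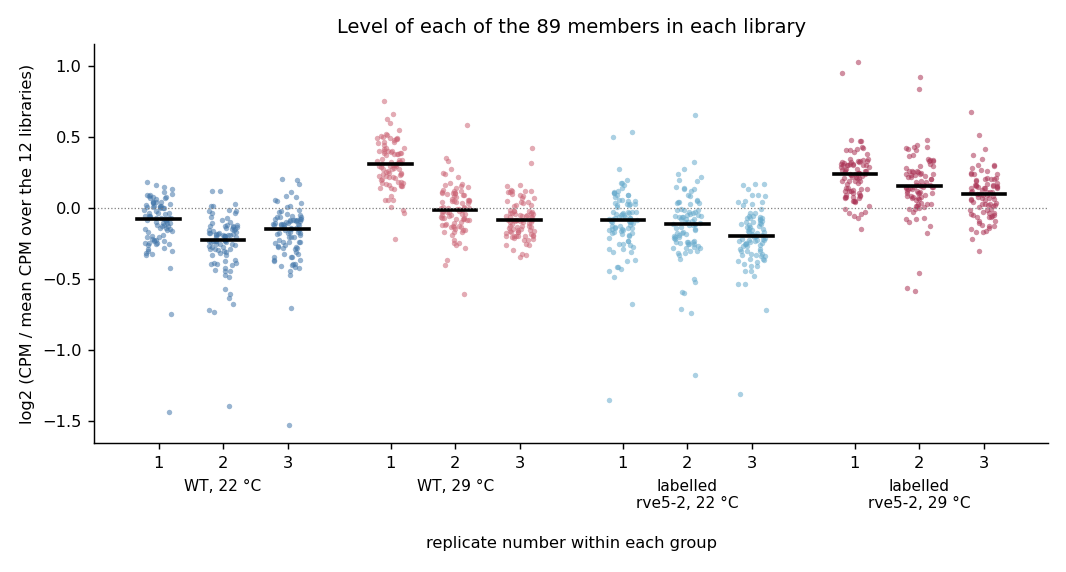
Level of each of the 89 members in each library, as log2 of its CPM over its mean CPM in the 12 libraries. Points are genes, black bars are medians over members, and libraries are grouped by genotype and temperature. The bar of replicate 1 of WT at 29 °C, at a relative level of 1.24, is the highest.

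In WT 23 members were called higher at 29 °C (adjusted p under 0.05 in edgeR over all 21870 genes analysed) and 0 lower, where 8.08% of all genes were called higher and 7.41% lower. At an unadjusted p under 0.05 there were 40 higher and 1 lower, and 6873 of all 21870 genes in either direction. Limma on log2 FPKM called 1 member lower, where 8.6% to 9.65% of all genes were lower. The median log2 fold change of members was 0.23, that of all genes 0. Without replicate 1 of WT at 29 °C 14 members were called higher, against 5.58% of all genes, the median was 0.10, and PTAC3 was called lower, against 5.59% of all genes. In the libraries labelled rve5-2 37 members were called higher and 0 lower, where the share of all genes was 13% in each direction and 26% in all, with a median of 0.31. At an unadjusted p under 0.05 there were 52 higher and 4 lower, and 8455 of all 21870 genes in either direction. Limma on log2 FPKM called 5 members lower, where 17.5% to 17.9% of all genes were lower. These counts repeat the choice of the term and nothing is read from them. With the level of the root markers as a covariate, 1 member was called higher in WT, against 0.434% of all genes, and 1 in the libraries labelled rve5-2, against 1.17%. The medians were then -0.09 and -0.02. Calls of at least 2-fold were made for 1 member in WT, AT2G46250, where 0.828% of all genes had one, and for 2 in the libraries labelled rve5-2, AT2G46250 and NEET, where 1.48% had one.

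The warm values of both genotypes went into the choice of the term, and they are set side by side as a description. There were 75 members above 0 in both, 6 below 0 in both and 8 of opposite sign. AT2G46250 stood far from the rest. Calls were shared by 19 members, which is 82.6% of the WT calls and 51.4% of those in the libraries labelled rve5-2, and 48 members were called in neither. The matching shares over all genes were not computed, so this overlap is not read as a trait of the members.

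**Figure D2:**
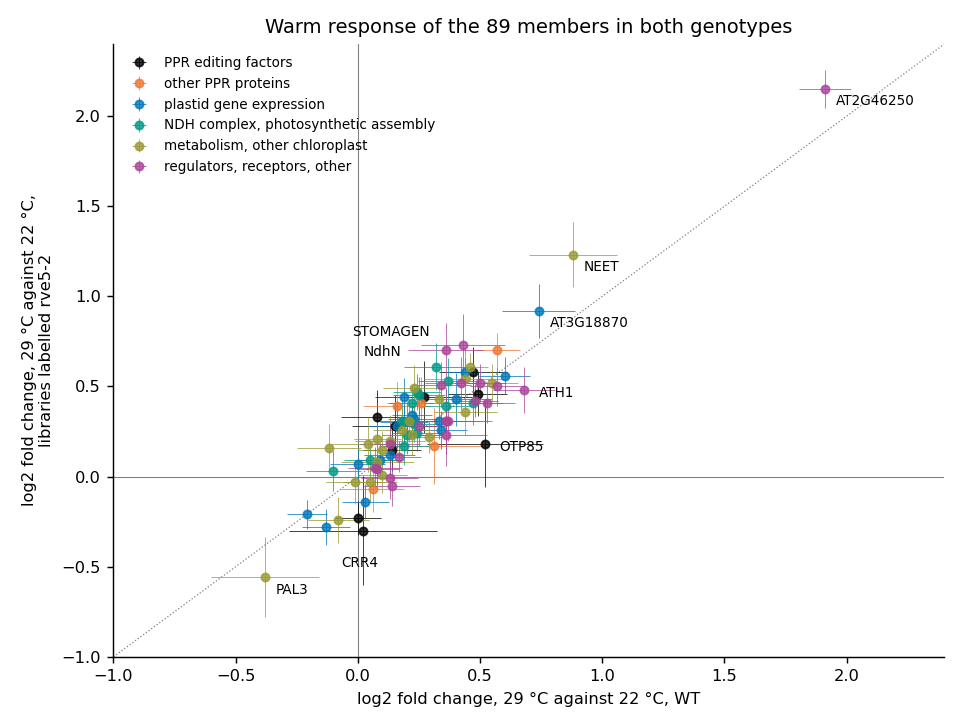
Log2 fold change at 29 °C against 22 °C of each member in WT (horizontal) and in the libraries labelled rve5-2 (vertical), with SE bars, coloured by role. The dotted line marks equal values. AT2G46250 is at 1.91 and 2.15, and 78 members in WT and 70 in the libraries labelled rve5-2 are within 0.5 of 0.

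Among the 9 PPR editing factors 2 were called higher at 29 °C in each genotype, which is 22.2%. Of all genes 8.08% were called higher in WT and 13% in the libraries labelled rve5-2. AT3G22150, needed to edit the ATP synthase transcript atpF, was 1 of the 2. It stood at 50.9, 43.5 and 47.0 CPM in WT at 22 °C and at 80.7, 59.1 and 58.5 CPM at 29 °C. In the libraries labelled rve5-2 it stood at 48.6, 52.5 and 44.2 CPM and then at 72.4, 61.5 and 66.1 CPM. Warm and cool libraries did not overlap in either genotype, and the log2 fold changes were 0.49 (SE 0.122) and 0.46 (SE 0.122). Without replicate 1 of warm WT the WT value was 0.32, and the call held in 4 of 6 fits that left out a library in each genotype. AT5G66520, which acts on ndhB, was the other, called in both genotypes as well. Its levels were 16.2, 15.5 and 14 CPM in WT at 22 °C and 26.5, 19.0 and 17.9 CPM at 29 °C, and 13.2, 16.3 and 15.9 CPM and 23.2, 21.7 and 22.8 CPM in the libraries labelled rve5-2. The groups did not overlap, with log2 fold changes of 0.47 (SE 0.139) and 0.58 (SE 0.139), though without replicate 1 of WT at 29 °C the WT value was 0.27 and not called. Its call held in 2 of 6 such fits in WT and in 6 of 6 in the libraries labelled rve5-2.

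The remaining 7 editing factors were not called. OTP85, which acts on ndhD, had the largest WT value of them, 0.52 (SE 0.237), but its libraries overlapped, with 8.19, 4.51 and 5.8 CPM at 22 °C and 11.8, 8.31 and 6.41 CPM at 29 °C. CRR4, which is required to create the start codon of ndhD, was the least expressed member and showed no common direction. It had 3.06, 2.82 and 3.12 CPM in cool WT, 3.97, 2.88 and 2.27 CPM in warm WT, 4.17, 3.19 and 1.76 CPM in cool and 2.6, 2.1 and 2.71 CPM in warm libraries labelled rve5-2. AT3G14330, which acts on psbE, was at 0.00 (SE 0.0936) in WT and -0.23 (SE 0.0938) in the libraries labelled rve5-2, where its warm libraries (20.8, 19.8 and 20.9 CPM) lay below the cool ones (24.4, 25.5 and 22.4 CPM). CRR22 and CRR28, each needed at several chloroplast sites, had WT log2 fold changes of 0.27 and 0.15, and CRR21, which acts on ndhD, and RARE1, which acts on accD, had 0.14 and 0.08. In the libraries labelled rve5-2 the 4 values were 0.44, 0.28, 0.15 and 0.33. Most of the WT values rested on replicate 1 at 29 °C. Without it CRR22, CRR28, CRR21 and RARE1 were at 0.00, 0.02, -0.02 and -0.08, OTP85 was at 0.25, CRR4 went from 0.02 to -0.22 and AT3G14330 was at -0.06.

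**Figure D3:**
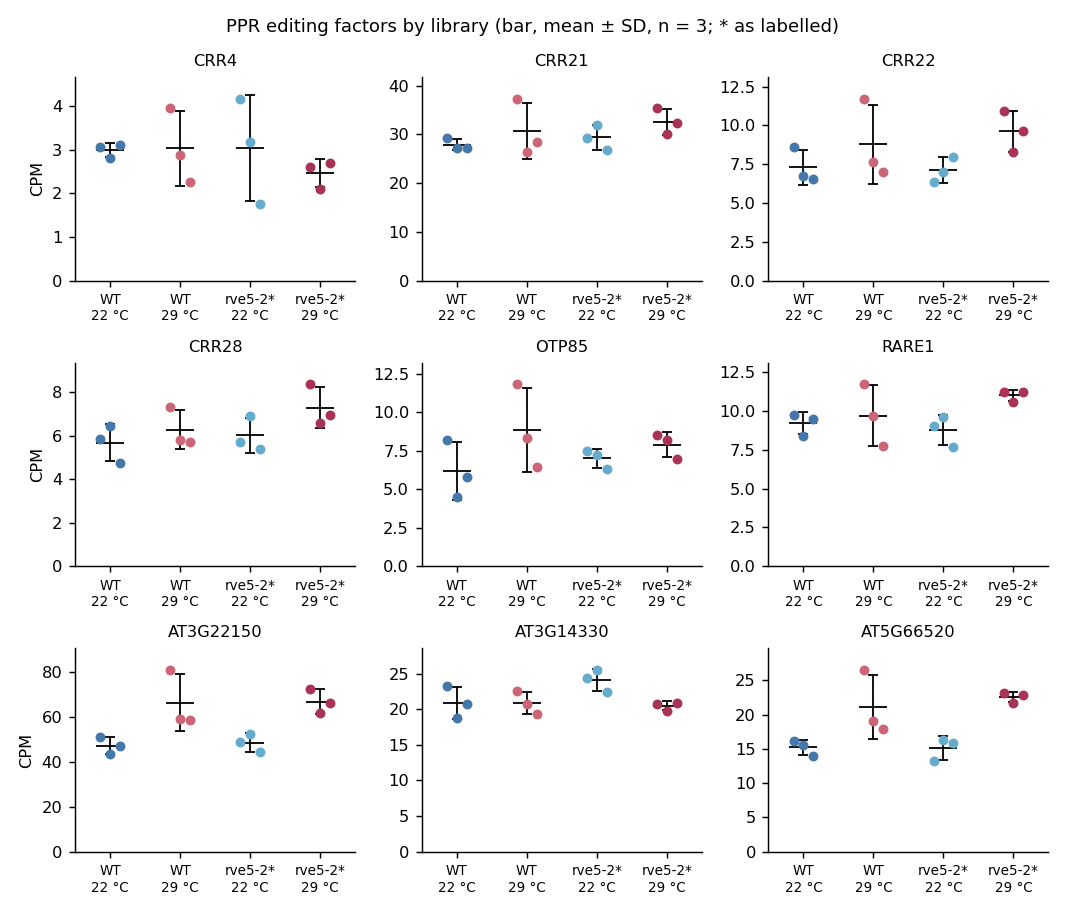
CPM of the 9 PPR editing factors in every library, with the mean and SD of each group (n = 3) as black bars and each vertical axis starting at 0. AT3G22150 and AT5G66520 have warm libraries above the cool ones in both genotypes, and in the WT warm group replicate 1 is the highest point in every panel.

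Other editing factors and cofactors were looked up for comparison, and their counts stand against 8.08% of all genes called higher and 7.41% lower in WT, and 13% each in the libraries labelled rve5-2. Values without replicate 1 of warm WT are not given for these lists. Of the 20 listed chloroplast editing PPR genes, 9 of them members, 6 were called higher and 0 lower in WT, and 5 higher and 1 lower in the libraries labelled rve5-2. ELI1, which is not a member, went from 10 ± 0.858 to 17.8 ± 1.44 CPM in WT (SD, n = 3 each). The log2 fold changes of the 20 ran from -0.25 to 0.83 in WT and from -0.42 to 0.96 in the libraries labelled rve5-2. The medians were 0.14 and 0.22. Of the 27 mitochondrial editing PPR genes 0 and 1 were called higher, with medians of 0.10 and 0.08. Of the 9 MORF genes 1 and 4 were called higher, with medians of 0.22 and 0.30. Among the 12 genes of N6-methyladenosine 1 was called higher in each genotype, and 2 and 3 were called lower. Among those lower was the demethylase gene ALKBH10B in both genotypes, at -0.61 in WT and -0.93 in the libraries labelled rve5-2. The 487 PPR genes outside the set had 44 higher and 8 lower in WT with a median of 0.13, and 55 and 13 in the libraries labelled rve5-2 with a median of 0.09, so that 10.7% and 14% of them were called in all, against 15.5% and 26% of all genes. The 3088 genes with a chloroplast or plastid component but without the term had 387 higher and 255 lower in WT with a median of 0.05, which is 20.8% called. They had 682 and 385 in the libraries labelled rve5-2 with a median of 0.08, which is 34.6%. Of the 57 members with such a component 11 were called higher in WT and 22 in the libraries labelled rve5-2 (19.3% and 38.6%). Of the 32 members without it 12 and 15 were called higher (37.5% and 46.9%). The medians were 0.2 and 0.28 with it and 0.36 and 0.4 without it.

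Of the 6 other PPR genes 1 was called higher in each genotype, which is 16.7%, against 8.08% and 13% of all genes. This was AT5G10690, whose protein also has a CBS domain. It stood at 56.1, 57.2 and 50.6 CPM in cool and 91.0, 78.2 and 75 CPM in warm WT, and at 51.6, 56.7 and 56.7 CPM and 94.3, 93.9 and 79.1 CPM in the libraries labelled rve5-2. The groups did not overlap, and the log2 fold changes were 0.57 (SE 0.0938) and 0.70 (SE 0.094). MRL1, which stabilises the rbcL transcript of Rubisco, was at 0.06 and -0.07. Without replicate 1 of warm WT the WT values were 0.49 and -0.08.

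Among the 17 genes of plastid gene expression 5 were called higher in WT (29.4%, against 8.08% of all genes) and 9 in the libraries labelled rve5-2 (52.9%, against 13%). SIG4, a sigma factor that directs the plastid-encoded RNA polymerase to its promoters, stood at 76.0, 66.9 and 69.0 CPM in cool and 127.6, 95.3 and 97.2 CPM in warm WT. In the libraries labelled rve5-2 it stood at 70.5, 72.0 and 66.5 CPM and at 107.6, 104.7 and 96.4 CPM. No warm library overlapped a cool one, and the log2 fold changes were 0.60 (SE 0.104) and 0.56 (SE 0.104). AT3G18870, of the family of mitochondrial transcription termination factors, went from 12.5, 9.29 and 11.5 CPM to 22.4, 17.2 and 16.1 CPM in WT (0.74, SE 0.149). In the libraries labelled rve5-2 its cool libraries reached at most 10.9 CPM and its warm ones at least 16.9 CPM (0.92, SE 0.15). The peptidyl-tRNA hydrolase family gene AT5G38290 and the valine-tRNA ligase gene EMB2247 were also called in both genotypes. When replicate 1 of warm WT was dropped, the WT values of SIG4, AT3G18870 and AT5G38290 were 0.45, 0.58 and 0.37, all still called. EMB2247 went from 0.33 to 0.22 there and was not called, and its call held in 1 of 6 fits that left out a library in each genotype.

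Some genes of plastid gene expression lay on the other side of 0, 2 of the 17 in WT and 3 in the libraries labelled rve5-2. PTAC3, a component of the plastid chromosome complex that transcribes DNA, stood at 127.9, 112.7 and 113.2 CPM in cool and 112.0, 102.0 and 91.0 CPM in warm WT, without overlap, and its log2 fold change was -0.21 (SE 0.0819) in both genotypes. The chloroplast RNA helicase gene ISE2 was at -0.13 (SE 0.099) in WT and -0.28 (SE 0.0991) in the libraries labelled rve5-2. There its warm libraries, at 68.7, 61.2 and 52.2 CPM, lay below the cool ones, at 71.0, 78.0 and 71.9 CPM. The endoribonuclease gene RNE was above 0 in both genotypes, at 0.16 and 0.28. EMB2369, a class I tRNA synthetase family gene, was at 0.03 and -0.14. The WT values of PTAC3, ISE2, RNE and EMB2369 were -0.29, -0.20, 0.02 and -0.09 without replicate 1 of warm WT.

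The adjacent genes BPG2, a GTPase of chloroplast ribosome maturation, and PrfB3, of the release factor family, lie head to head on chromosome 3 with 264 bases between them in the table's coordinates, while the RefSeq models of the pair overlap at their ends. BPG2 had log2 fold changes of 0.09 in each genotype. PrfB3 was at 0.40 (SE 0.147) in WT and at 0.43 (SE 0.147) in the libraries labelled rve5-2, where it was called, though in only 1 of 6 fits that left out a library. BPG2 and PrfB3 were at 0.01 and 0.22 in WT without its replicate 1 at 29 °C. Of 4 such neighbouring pairs, this was the closest.

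Of the 15 genes of the NDH complex and photosynthetic assembly 2 were called higher in WT (13.3%, against 8.08% of all genes) and 9 in the libraries labelled rve5-2 (60%, against 13%). All 15 were above 0 in the latter and 14 in WT. Cpn60beta4, a chaperonin subunit that folds an NDH subunit, and CRR7, an NDH assembly factor, were called in both genotypes, at 0.47 and 0.36 in WT. NdhN stood at 140.2, 136.8 and 121.6 CPM in cool WT and at 209.5, 133.9 and 154.0 CPM in warm WT, which overlapped. In the libraries labelled rve5-2 it stood at 120.0, 122.5 and 109.5 CPM and at 184.0, 176.8 and 176.6 CPM, well apart. The log2 fold changes were 0.32 (SE 0.13) and 0.61 (SE 0.13). PnsL1, another NDH subunit, was at 0.37 and 0.53, and CRR1, whose product helps assemble the complex, at -0.10 and 0.03. When replicate 1 of warm WT was left out, 0 genes of this group were called in WT. Cpn60beta4 and CRR7 were then at 0.35 and 0.25, NdhN and PnsL1 at 0.12 and 0.17, and CRR1 at -0.26.

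**Figure D4:**
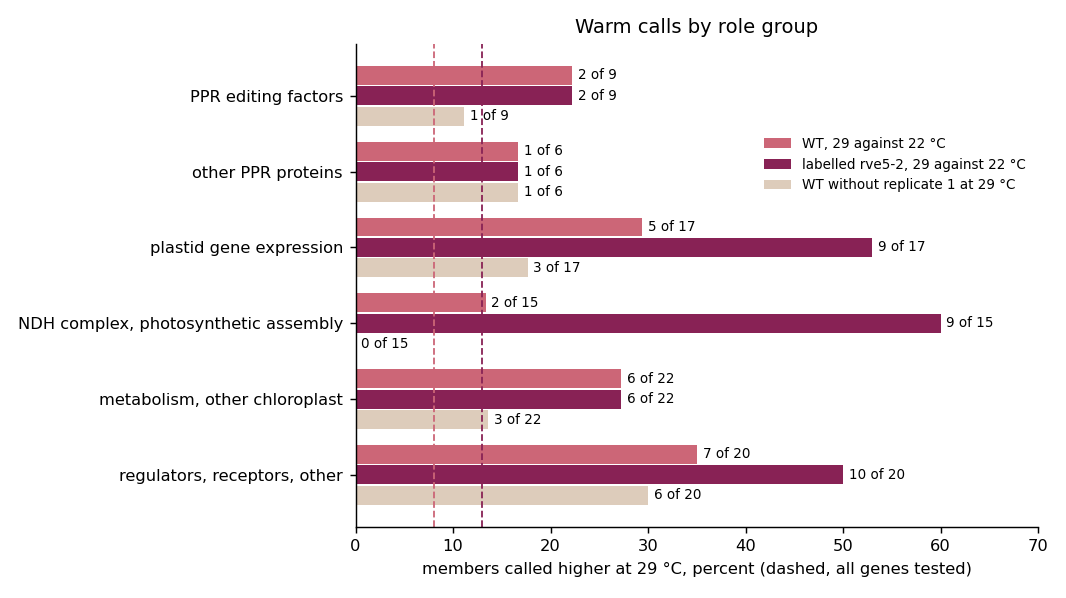
Share of each role group called higher at 29 °C, in percent, in WT, in the libraries labelled rve5-2, and in WT without replicate 1 at 29 °C, with the numbers of genes beside each bar. Dashed lines are the shares of all genes called higher, 8.08% in WT and 13% in the libraries labelled rve5-2. The bars of the NDH group run from 0 to 9 of 15.

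The 22 genes of metabolism and other chloroplast functions had 6 called higher in each genotype (27.3%, against 8.08% of all genes in WT and 13% in the libraries labelled rve5-2). NEET, which binds iron-sulfur clusters, stood at 56.7, 57.8 and 58.4 CPM in cool and 124.6, 102.4 and 91.6 CPM in warm WT, and at 70.7, 58.0 and 65.8 CPM and 183.2, 169.8 and 102.6 CPM in the libraries labelled rve5-2. Its groups did not overlap, with log2 fold changes of 0.88 (SE 0.179) and 1.23 (SE 0.18). AT1G17850, of the rhodanese superfamily, was at 0.55 and 0.52, and the aldolase gene FBA7 at 0.46 and 0.61. PAL3, which encodes a phenylalanine ammonia-lyase, was the lowest of the set, with 10.6, 8.3 and 11 CPM in cool and 8.2, 6.27 and 8.51 CPM in warm WT. Its libraries overlapped in both genotypes, and the log2 fold changes were -0.38 (SE 0.222) and -0.56 (SE 0.222). The starch-debranching gene LDA was at -0.08 and -0.24. LUT1, a carotenoid hydroxylase of lutein synthesis, was called in WT at 0.29, but 1900 of its 4772 bases overlap a gene on the same strand, so the counts of the pair may not be separable. AT1G52510, an alpha/beta hydrolase family gene at -0.12 and 0.16, overlaps a gene on the other strand by 1608 bases, and the kit does not mark strand. Without replicate 1 of warm WT the WT values of NEET, AT1G17850 and FBA7 were 0.75, 0.44 and 0.40, all still called. LUT1 was at 0.18 and not called, and PAL3, LDA and AT1G52510 were at -0.43, -0.23 and -0.30.

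Of the 20 regulators, receptors and others 7 were called higher in WT (35%, against 8.08% of all genes) and 10 in the libraries labelled rve5-2 (50%, against 13%). The most responsive member of all was AT2G46250, described in the table as myosin heavy chain-related. It stood at 13.1, 13.5 and 12.3 CPM in cool and 54.7, 44.4 and 47.4 CPM in warm WT, and at 13.9, 15.7 and 14.3 CPM and 72.0, 67.0 and 56.4 CPM in the libraries labelled rve5-2. The groups were far apart, with log2 fold changes of 1.91 (SE 0.106) and 2.15 (SE 0.107). With the root markers as a covariate it was still called, at 1.58 and 1.80, and it was the 1 member called higher there in each genotype. Without replicate 1 of WT at 29 °C its WT value was 1.82.

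The homeodomain gene ATH1 stood at 52.5, 47.8 and 47.1 CPM in cool and 90.8, 77.3 and 67.8 CPM in warm WT (0.68, SE 0.128), and it was at 0.48 in the libraries labelled rve5-2. The homeodomain-like gene AT3G04450 was at 0.53 and 0.41, and AT2G29360, of the NAD(P)-binding Rossmann-fold superfamily, at 0.57 and 0.50. STOMAGEN, a secreted peptide that promotes stomata, was at 0.36 (SE 0.153) in WT, where its libraries overlapped. In the libraries labelled rve5-2 it was called at 0.70 (SE 0.154), with 18.1, 15.9 and 20.8 CPM in cool and 28.8, 33.5 and 27 CPM in warm libraries. The blue light receptor gene PHOT2 was at 0.25 and 0.28, SCRM2, a bHLH factor of the stomatal lineage, at 0.17 and 0.11, and TCP5, a factor of leaf development, at 0.36 and 0.31. PHOT2 shares 2760 bases with a gene on the other strand. With replicate 1 of warm WT left out, the WT values of STOMAGEN, PHOT2, SCRM2 and TCP5 were 0.17, 0.10, 0.08 and 0.13, while ATH1, AT3G04450 and AT2G29360 were still called, at 0.56, 0.51 and 0.47.

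The comparison of genotypes was not used to choose the term and could be tested. No member differed between the libraries labelled rve5-2 and WT in edgeR at either temperature, where 0.192% of all genes were called at 22 °C, 0.0549% as lower, and 0.466% at 29 °C. At 22 °C the smallest adjusted p of a member was 0.596. At an unadjusted p under 0.05 there were 3 members, all higher in the libraries labelled rve5-2, and 1397 of all 21870 genes in either direction. DESeq2 and limma called 0 members, where DESeq2 called 0.489% of all genes higher and 0.165% lower. Member values ran from -0.34 for the pectin lyase-like gene AT1G60590 to 0.35 for the lipase gene AT4G28780, and the median was 0.03 with a median SE of 0.112. Libraries of the genotypes did not overlap for 9 members higher and 3 lower in those labelled rve5-2 of the 89, where the shares of all genes were 7.2% and 7.17%.

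At 29 °C the smallest adjusted p of a member was 0.147, and 10 members reached an unadjusted p under 0.05, all of them higher in the libraries labelled rve5-2. The median was 0.08, and 65 members were above 0. Of all 21870 genes analysed 1838 reached that p in either direction, 10535 were above 0, and the median was -0.01. That smallest p was of AT2G46250, at 47.4, 44.4 and 54.7 CPM in WT and 56.4, 67.0 and 72.0 CPM in the libraries labelled rve5-2, with a log2 fold change of 0.42 (SE 0.102). The lowest library so labelled lay above the highest of WT. The gene passed the test in DESeq2, which called no other member (adjusted p = 0.0254), and in edgeR with the root markers as a covariate (adjusted p = 0.0165), while limma on log2 FPKM called 0 members. DESeq2 called 1.07% of all genes higher there and 0.512% lower. NEET had the highest value, 0.52 (SE 0.177, adjusted p = 0.373 in edgeR), and its libraries overlapped. Libraries did not overlap for 6 members higher and 0 lower in those labelled rve5-2 (6.74% and 0%), where the shares of all genes were 6.13% and 5.5%.

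The genotype result at 29 °C depended on replicate 1 of WT. Without it 6 members were called higher in the libraries labelled rve5-2, where 1.6% of all genes were and 0.91% were lower, and the median was 0.22. They were AT1G52510, AT2G46250, Tic62, FBA7, AT5G44520 and AT5G64380, at log2 fold changes of 0.52, 0.50, 0.37, 0.31, 0.38 and 0.57. Tic62 encodes a protein of the inner chloroplast envelope and thylakoid that tethers ferredoxin-NADP reductase. No editing factor was among them. Without replicate 3 of the libraries labelled rve5-2 at 29 °C only NEET was called (0.73, edgeR adjusted p = 0.0216), where 0.311% of all genes were called higher. The 8 green-tissue markers also differed by genotype, with 3 called higher at 22 °C and 5 at 29 °C in the libraries labelled rve5-2. Of all genes 0.137% and 0.32% were called higher there. The part of these markers in the member values was not tested.

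**Figure D5:**
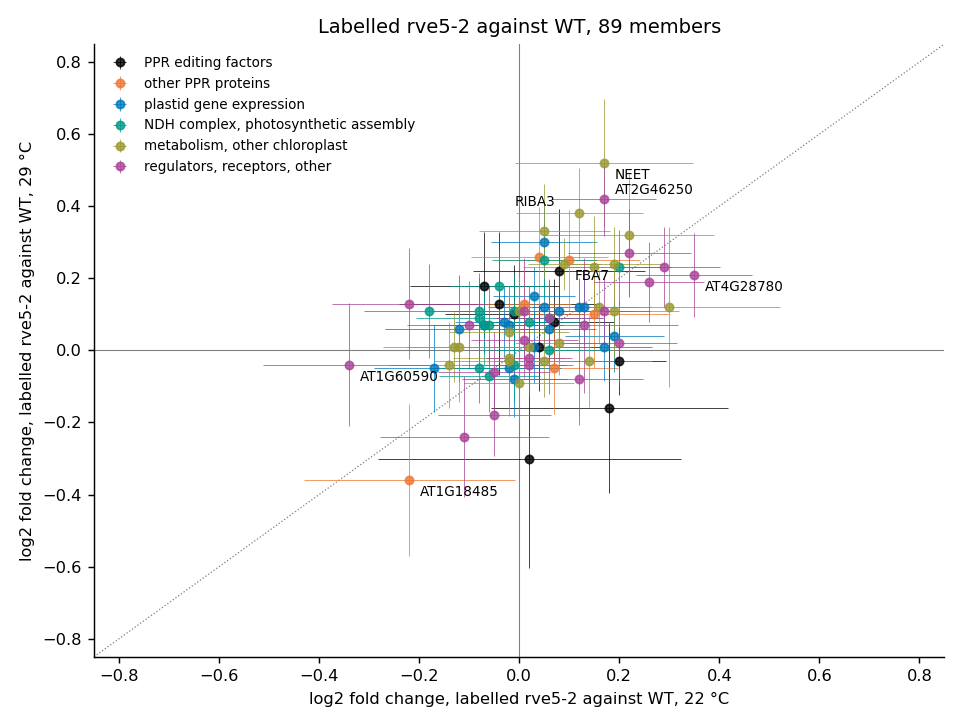
Log2 fold change of the libraries labelled rve5-2 against WT for each member at 22 °C (horizontal) and 29 °C (vertical), with SE bars, coloured by role. The dotted line marks equal values. Members lie between -0.36 and 0.52 on both axes, and the SE bars of most cross 0.

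No editing factor was called between genotypes in edgeR. Their log2 fold changes ran from -0.07 to 0.20 at 22 °C and from -0.30 to 0.22 at 29 °C, and no group of libraries stood apart. SEs reached 0.304 for CRR4, and a difference of several such SEs could have been missed there after adjustment over all genes. AT2G46250 at 29 °C was likewise not called in edgeR at a log2 fold change several times its SE. AT3G22150 was at 0.04 (SE 0.122) and 0.01 (SE 0.122), and AT5G66520 at -0.01 (SE 0.139) and 0.10 (SE 0.138). Of the editing factors, cofactors and N6-methyladenosine genes outside the set, 0 were called at either temperature in edgeR. The smallest adjusted p among these was 0.239, for ALKBH10B at 29 °C.

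The difference between the warm responses of the genotypes ran from -0.34 for OTP85 to 0.35 for NEET and STOMAGEN, with a median of 0.03. In edgeR 0 members and 0 of all genes analysed were called. At an unadjusted p under 0.05 there were 0 members and 1070 of all 21870 genes. DESeq2 and limma called 0 members, where DESeq2 called 0.0732% of all genes higher and 0.128% lower and limma called 0. This contrast is built from the warm comparisons. Its SEs ran from 0.103 to 0.429, and differences of several times these SEs could also have been missed after adjustment over all genes.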

How the data were processed

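Per the labels' protocols, total RNA of seedlings was extracted with Trizol and made into TruSeq RNA v2 libraries, which do not keep strand. Per the submitters' processing notes, cutadapt 1.9, HISAT2 2.0.4, StringTie 1.3.4d, edgeR and the TAIR10 build were used; which tool made which column is not given in the sources used here. The deposited table holds, per the file headers, a count and an FPKM column for each library. The deposited counts are whole numbers, but low counts are spaced about 3.71 apart, so 1 fragment seems to stand for several counts and the libraries for 17.8 to 24 M fragments. FPKM values were computed by the authors and were used for levels between genes. Counts were analysed as deposited in R 4.3.3 with edgeR 4.0.16: filterByExpr with a minimum count of 10 left 21870 genes, TMM scaling, a quasi-likelihood fit of all 12 libraries with 1 mean per group, and Benjamini-Hochberg adjustment over all genes. SE is the log2 fold change over the root of F, an approximation. Alternatives used DESeq2 1.42.0 and limma 3.58.1 on log2(FPKM + 1) and log2(FPKM + 0.1). The fit was also run on data simulated with the spread that it had estimated itself. These held no library set apart and no spaced counts, so that run says nothing on the calls above.

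The temperature of a library was read from its own treatment label, because the protocol text shared by all libraries mentions 29 °C alone. Members, role groups and lists were chosen with earlier results of these data known. Members were named if among the 10 highest or 5 lowest in warm WT, the 5 highest FPKM, the editing factors, called between genotypes, or of the smallest adjusted p between genotypes in another list; others were chosen after their values were seen. Of the 89 members all were found in RefSeq, 12 with the same start and end as in the table. Sequences were read from RefSeq TAIR10.1; the coding sequence is the longest per gene. The genes overlap others in 23 cases, where reads cannot be told apart without strand. Intervals and tests cover counting and library spread, not culture.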

Additional observations from a re-analysis of the deposited data

How the results depend on the processing

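Median-of-ratios or upper-quartile scaling, no filter on low counts and counts divided by their spacing left every count of calls within 1.5 times its main value and moved no median by more than its spread. With the root markers as a covariate, 1 member was called higher at 29 °C in WT and 1 in the libraries labelled rve5-2, 1 was called lower in the latter, 1 was higher between genotypes at 29 °C, and the warm medians were -0.09 and -0.02. The shares of all genes in that fit were 0.434%, 1.17%, 0.882% and 0.645%. The covariate cannot be told apart from temperature. Fitting only the groups of a comparison gave 14 members higher in WT, against 4.48% of all genes, and 1 lower in the libraries labelled rve5-2, against 15%. A mean FPKM of at least 1 and the DESeq2 Wald test each gave 1 lower in the libraries labelled rve5-2, against 15.6% of all genes in each fit. DESeq2 gave 1 higher between genotypes at 29 °C, against 1.07% of all genes. In limma on log2(FPKM + 1) and log2(FPKM + 0.1) 1 member was lower in WT and 5 in the libraries labelled rve5-2, whose median was 0.19 and 0.20. Of all genes 9.65% and 8.6% were lower in WT in these fits. In the libraries labelled rve5-2 the shares were 17.9% and 17.5%, and the medians of all genes were -0.08 and -0.1. The single lower calls were of ISE2, or of PTAC3 in the fits of WT by limma and of only the compared groups.

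Leaving out each library in turn gave 13 to 28 members higher and 0 to 1 lower in warm WT, 24 to 33 higher and 0 to 1 lower in the warm libraries labelled rve5-2, and 0 to 6 higher between genotypes at 29 °C. In the same fits the shares of all genes called higher were 4.43% to 7.79%, 8.45% to 11.6% and 0.153% to 1.6%. Those called lower were 3.46% to 8.54% in warm WT and 7.52% to 12% in the warm libraries labelled rve5-2. The medians of members ran from 0.10 to 0.30 in warm WT, from 0.26 to 0.34 in the warm libraries labelled rve5-2, from 0 to 0.22 between genotypes at 29 °C, from 0 to 0.07 at 22 °C and from -0.04 to 0.18 for the difference of warm responses. The lower calls there were of PTAC3 in WT, without its replicate 1 at 29 °C, and of ISE2 or PAL3. Of the calls, 13 of 23 in WT and 23 of 37 in the libraries labelled rve5-2 held whichever library was left out. Replicate numbers shared by the groups were not used as a pairing, since the labels give them no meaning: deviations of same-numbered libraries correlated at -0.0249 to 0.21 (18 pairs) and those of other libraries at -0.218 to 0.102 (36 pairs); the highest value was between the third libraries of the genotypes at 29 °C. With the replicate block 1 member was called lower in the warm libraries labelled rve5-2, against 13.8% of all genes. Of the values of named genes under an alternative, 2353 kept their call or lack of it, 51 lost a call and 26 gained one, with no change of sign among calls. The causes were not tested.

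The lowest count of an editing factor in a library was 131, and the SE of CRR4, up to 0.304 between groups, was the largest of the set. The parts of depth and of spread between libraries in that SE were not tested. The difference of warm responses was not fitted on only the groups of a comparison, since it needs all 4.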
